A study of Mus musculus with 2 samples.

Results

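Keratins are the intermediate filament proteins of epithelial cells, and the genes described here are the 53 mouse genes whose symbol is Krt followed by a number, with or without a letter. They were chosen by symbol alone, and each had at least 1 UMI, so all 53 listed symbols stayed in, of 32285 genes listed and 28928 genes with a UMI. Keratin-associated proteins (Krtap and Krtcap) are other families and were left out. The data were droplet single-cell transcriptomes of live EPCAM+ cells sorted from mouse thymus, with a Cre+ library labelled Foxp1 KO and a Cre- library labelled Foxp1 WT, 1 of each. The genotype field reads KO in both samples, so the titles and library names separated the groups. The Cre driver, the part of Foxp1 that was deleted, the number of animals, their age and their sex are not stated in the labels.

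Foxp1 itself, a forkhead transcription factor, stood at 405 CPM (UMI counts scaled to the total of the cells summed) in the epithelial cells of the KO-labelled library and at 252 CPM in those of the WT-labelled library (log2 ratio 0.68, 0.64 to 0.73). The gene-level counts thus go against the label, and since a whole-gene count also counts reads outside a deleted part, they do not check the deletion. Every direction given here is between the KO-labelled library and the WT-labelled library as deposited. With 1 library per group, differences have no replicate check, no test was made, and each 95% interval covers counting error only.

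Keratins work in pairs: a type I (acidic) and a type II (basic) protein form a heterodimer, and the heterodimers build the filaments that link desmosomes and hemidesmosomes across an epithelium. Simple epithelia use Krt8 with Krt18, the basal layer of stratified epithelia uses Krt5 with Krt14, and differentiating epidermal cells change to Krt1 with Krt10, while other pairs belong to wounds, mucosa, hair follicle sheaths and hair. In the thymus, Krt8 and Krt5 are long used to tell cortical from medullary epithelium, and medullary thymic epithelial cells (mTECs) make proteins of many other tissues and show them to maturing T cells, in part under Aire.

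After filtering, 3584 and 4037 cells remained in the KO- and WT-labelled libraries, of which 3268 and 3883 were in epithelial clusters, with medians of 5222 and 6356 UMIs per cell and totals of 22413338 and 30753601 UMIs. The cells formed 20 clusters, 16 of them epithelial, found without the keratin genes and without Foxp1. Of these, 13 took a name from marker genes that include no keratin. Cluster 4 had 6 of 7 Ccl21 mTEC markers, but 2 pericyte markers (Tagln and Acta2) and only Ccl21a of its own stood among its 10 leading genes. No marker of their own led cluster 14 (4 of 7 Ccl21 mTEC markers), the basal-like (5 of 7) or the ciliated-like cells (9 of 9). These names accordingly rest on enrichment alone. They are weak for cluster 14 and the basal-like cells, where part of the list did not pass. Cortical-like cells numbered 32 in the KO-labelled library and 1 in the WT-labelled library, so no comparison was made in them. The libraries shared 5 cell barcodes. Epcam, the gene of the sorting marker, stood at 619.6 and 547 CPM in the KO- and WT-labelled libraries, and Aire at 359.7 and 429 CPM.

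In the genome the family lies in a pair of clusters, with 27 members on chromosome 11 and 26 on chromosome 15. There are 28 type I and 25 type II genes, and the type I gene Krt18 (chr15:102028180-102032027, + strand, mm10) stands beside the type II gene Krt8 (chr15:101996698-102004482, - strand) rather than with the other type I genes. Krt17 lies at chr11:100256217-100261029 and Krt5 at chr15:101707070-101712898, both on the - strand. No member overlaps another gene on the same strand and 12 overlap one on the other strand. Some members share stretches of 90 bases of exon with another gene, which leaves their counts uncertain. The shares were highest for Krt6a and Krt6b (33.6% each), Krt86 (28.2%), Krt81 (27.3%), Krt16 (26.2%), Krt34 (20.1%) and Krt8 (18.9%), whose processed pseudogene is annotated.

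Keratins took 0.522% of all epithelial UMIs in the KO-labelled library and 0.544% in the WT-labelled library (log2 ratio -0.06, -0.07 to -0.05). Of the 284365 keratin UMIs in epithelial cells of both libraries, 71.6% came from Krt17, Krt8 and Krt18. Per kilobase of exon, Krt17 led with 959.6 and 1031.5 CPM per kb, followed by Krt18 with 769 and 766 CPM per kb and Krt8 with 578 and 618 CPM per kb, in the KO- and WT-labelled libraries. Krt14 had 198 and 161 CPM per kb and Krt5 177 and 166 CPM per kb. A UMI counts a molecule whatever its length, so the order per kb depends on the exon lengths used. By CPM Krt17 led too, but Krt8 (1131 and 1210 CPM) stood above Krt18 (1104 and 1100 CPM). The members thus span from these few abundant genes to Krt40, with 4 UMIs in all.

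The share of RNA spent on keratins differed between cell types more than between libraries. It was highest in keratinocyte-like cells, at 1.13% and 1.34% of UMIs in the KO- and WT-labelled libraries, and stood at 0.690% and 0.775% in the Ccl21 mTEC-like cluster 4 and at 0.367% and 0.415% in Aire-stage mTEC-like cells. Type I UMIs outnumbered type II UMIs 1.71 to 1 and 1.69 to 1 over the epithelium. In neuroendocrine-like cells there were 0.843 and 0.836 type I UMIs for each type II UMI, and in ciliated-like cells 0.857 and 0.882. Divided by kb of exon, the ratio was 1.27 and 1.25 to 1 in neuroendocrine-like cells and 1.16 and 1.17 to 1 in ciliated-like cells. These values rest on all annotated exons, 7049 bp for Krt7 against 1958 bp for Krt8. A UMI counts a molecule whatever its length, so they do not correct the ratio of UMIs. A typical epithelial cell, thinned to 2000 UMIs, had UMIs of 3.67 ± 1.67 (SD over cells) and 3.72 ± 1.70 different keratin genes, and a keratinocyte-like cell of 5.63 and 5.95.

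**Figure D1:**
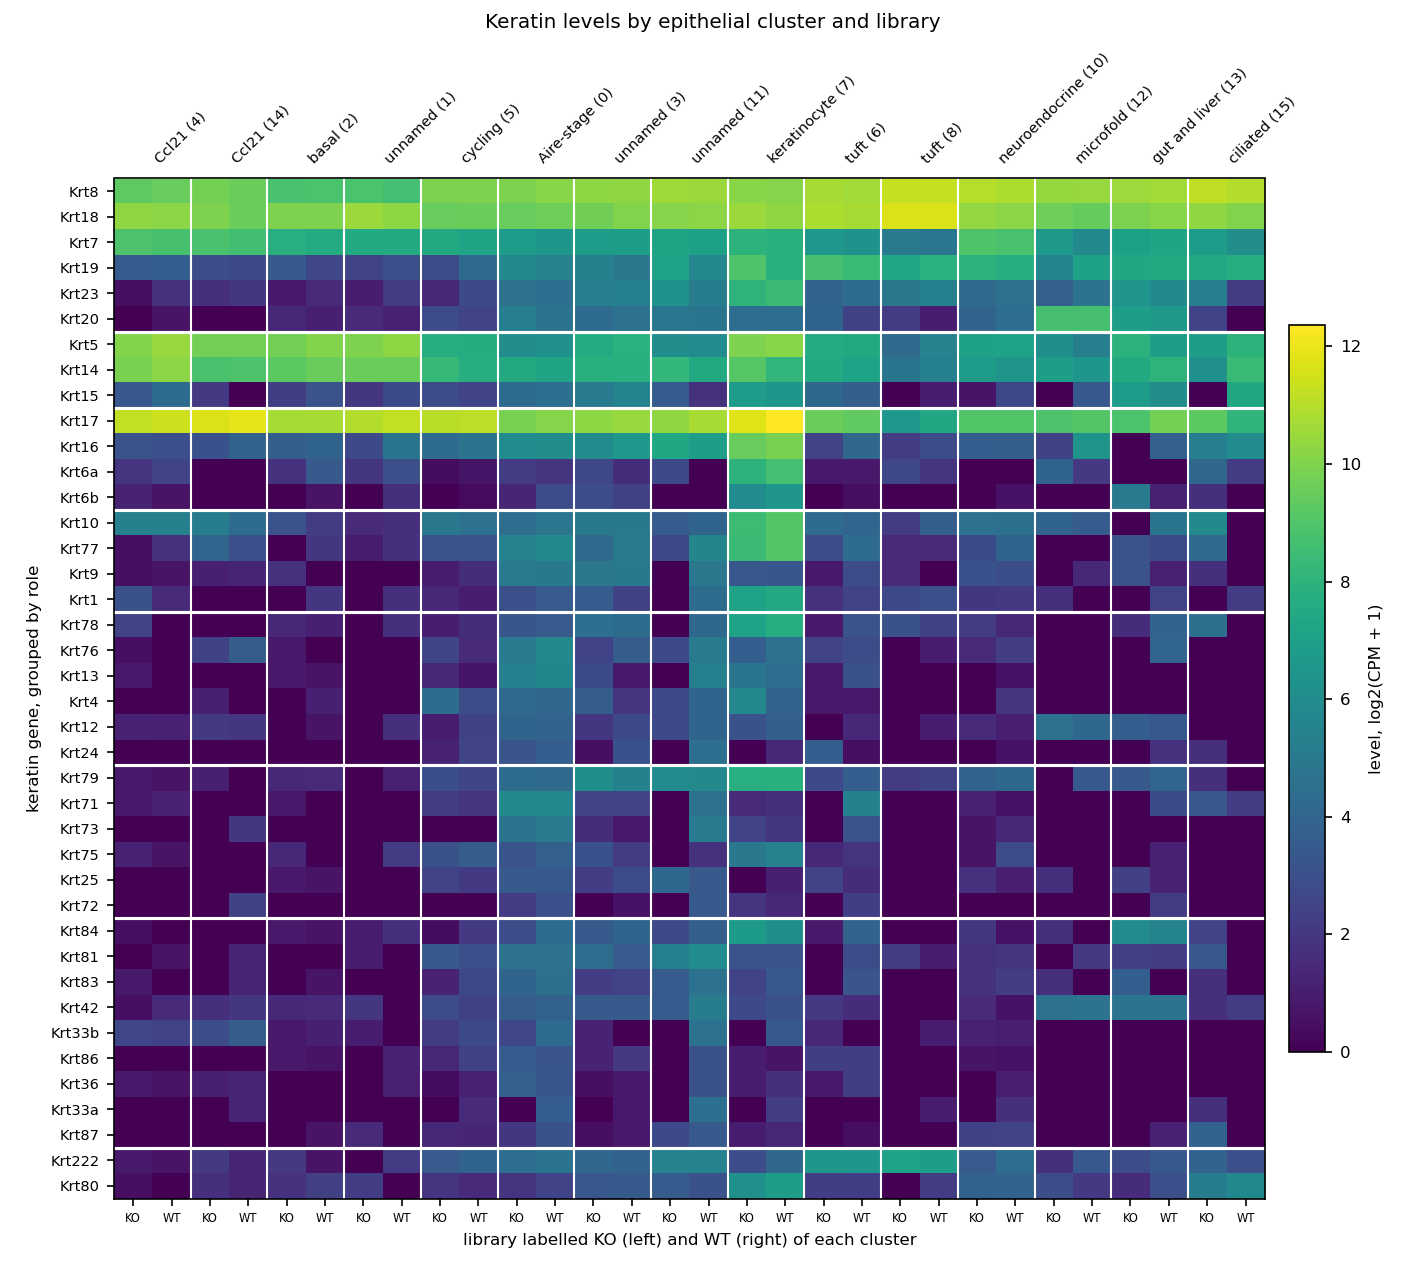
Colour gives the level, log2(CPM + 1), of the 40 keratin genes with at least 100 UMIs (down the page, grouped by role and divided by white lines) in each epithelial cluster with at least 20 cells per library; each cluster has the KO-labelled library on the left and the WT-labelled library on the right. Krt8 and Krt18 have UMIs in every cluster and are highest in tuft-like cluster 8. Krt5 and Krt14 are highest in the Ccl21 mTEC-like cluster 4, and Krt5 is also high in basal-like and keratinocyte-like cells. In keratinocyte-like cells of the WT-labelled library, Krt14 is near its level over all epithelial cells. Most mucosal, sheath and hair keratins only reach low levels, mainly in the Aire-stage-like and unnamed clusters.

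Of the 40 members with at least 100 UMIs, 29 had their highest level in the same cluster in both libraries. Those were keratinocyte-like cells for 13, the Aire-stage-like cells for 6 (Krt36, Krt13, Krt86, Krt71, Krt73 and Krt76), tuft-like cluster 8 for 3 (Krt8, Krt18 and Krt222), cluster 4 for 2 (Krt5 and Krt14), microfold-like cells for 2 (Krt20 and Krt12), the unnamed cluster 11 for 2 (Krt25 and Krt81) and neuroendocrine-like cells for Krt7. Some of these tops rest on few UMIs. In cluster 11, with 180656 and 409025 UMIs in all, Krt25 stood at 16.6 and 9.78 CPM. In microfold-like cells, with 464779 and 637421 UMIs, Krt12 stood at 23.7 and 17.3 CPM. Most UMIs of Krt25 (61.0%), Krt81 (58.8%) and Krt12 (59.3%) came from the Aire-stage-like cells. The 11 other members, such as Krt19 and Krt33b, had different top clusters in the 2 libraries.

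Among the simple epithelial keratins, Krt8 and Krt18 had UMIs in every cluster. In tuft-like cluster 8, Krt8 reached 2488 CPM (2358 to 2624) in the KO-labelled library and 2462 CPM (2371 to 2555) in the WT-labelled library, and Krt18 reached 3334 CPM (3183 to 3491) and 3251 CPM (3146 to 3358). Krt8 was low in basal-like cells, at 441 and 468 CPM, and in the unnamed cluster 1, at 459.6 and 408 CPM. In the Aire-stage-like cells Krt18 stood at 726 and 804 CPM. Thymocyte-like cells, which should lack keratins, had Krt8 at 678 and 382 CPM and Krt18 at 891 and 317 CPM. In the KO-labelled library, Krt8 in basal-like cells and cluster 1 and Krt18 in Aire-stage-like cells were below those levels.

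The other simple keratins were more selective. Krt7, a type II keratin of glandular ducts, was highest in neuroendocrine-like cells, at 498 CPM (465 to 533) in the KO-labelled library and 451 CPM (421 to 483) in the WT-labelled library, and was close to that in cluster 4, at 479 and 439 CPM. The counting intervals of those 2 clusters overlapped for Krt7. Krt20, a keratin of gut surface cells, stood at 424 and 420.4 CPM in microfold-like cells and at 120.4 and 103 CPM in gut- and liver-like cells. Krt19, a small type I keratin without the usual tail, stood at 414 and 330.3 CPM in tuft-like cluster 6. Krt222, a short keratin-related protein, was highest in tuft-like cluster 8, at 137 and 117 CPM.

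The basal keratins Krt5 and Krt14 had their highest levels in cluster 4, where Ccl21a leads beside Tagln and Acta2. There Krt5 stood at 1083 CPM (1041 to 1127) in the KO-labelled library and at 1396 CPM (1340.1 to 1453) in the WT-labelled library, and Krt14 at 952 CPM (912 to 993) and 1178 CPM (1127 to 1231). Both were thus lower in the KO-labelled library in this cluster, by less than 1.5-fold. In tuft-like cluster 8, where Krt8 peaked, Krt5 had 18.3 and 43.6 CPM. Basal-like and keratinocyte-like cells were closer to the top, with Krt5 at 835 and 1068 CPM and at 997 and 1152 CPM.

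Krt17, best known from wounds and hair follicles, was the most abundant keratin by UMIs and followed the basal pattern in part. It stood at 3321 and 3820.2 CPM in cluster 14 and at 2384 and 2723 CPM in cluster 4, in the KO- and WT-labelled libraries. In tuft-like cluster 8 it was at 96.8 and 171 CPM. Its highest level was in keratinocyte-like cells, described further on.

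At 2000 UMIs per cell, 72.7% of epithelial cells in either library had a UMI of Krt18, and 69.9% and 73.0% had one of Krt8, in the KO- and WT-labelled libraries. Krt5 was found in 35.8% and 34.3% of cells and Krt14 in 37.6% and 33.5%. Thymocyte-like cells, which should lack keratins, gave 37.5% and 30.6% for Krt18, 33.3% and 27.8% for Krt8 and 12.5% and 5.56% for Krt5 at the same depth, from 24 and 36 cells. Where those UMIs came from was not tested. In tuft-like cluster 8, Krt5 was found in 2.80% and 2.88% of cells, no more than in thymocyte-like cells. In cluster 4, Krt5 was found in 77.7% and 82.0% of cells at the same depth. Of the thymocyte-like cells themselves, 37.9% and 27.0% had an Epcam UMI, counted on all UMIs of each cell.

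Within single cells the known pairs were found together. Among epithelial cells with a Krt8 UMI, 77.3% and 78.3% also had Krt18 in the KO- and WT-labelled libraries, against 61.8% and 57.6% of cells without Krt8. Among cells with Krt5, 61.8% and 58.7% had Krt14, against 24.1% and 20.3% of cells without it. For Krt5 with Krt8 the order was the other way: 62.0% and 64.4% of cells with Krt5 had Krt8, against 74.3% and 77.4% of cells without Krt5. Krt17 was found in 87.3% and 88.1% of cells with Krt5. All counting intervals of these with and without shares were apart. The thinned cells share depth, but cell type differs between cells with and without a UMI, so the shares describe cell types as well as pairs.

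Over 30 points, the 15 larger epithelial clusters in each library, the level of Krt5 on the log2(CPM + 1) scale was most like that of Krt14 among the other keratins (Pearson r 0.87) and ran against that of Krt8 (r -0.76). Among all other genes, Trim29 (r 0.95), Mir205hg (0.93), Tiam1, Notch2 and Ahnak (0.91 each) were most like Krt5. Smim22 (0.94), Cystm1 (0.93), Camk2n1 and Pcbd1 (0.92 each) and Prr15l (0.91) were most like Krt8. For Krt10 the likeness was lower, with Endou and Fam110a at 0.74 and Psapl1, Arfip1 and Pglyrp4 at 0.72. The r of Krt8 with its partner Krt18 was 0.37. These points share libraries and differ in depth, so the values are descriptions.

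Keratinocyte-like cells, 155 in the KO-labelled library and 230 in the WT-labelled library, were named from 11 of 12 cornification and late epidermal markers such as Cnfn, Calm4 and Krtdap. Krt17 reached its highest level there, with 3459 CPM (3349 to 3572) and 5259 CPM (5153 to 5367). Krt16, the wound-induced partner of Krt6, stood at 711 CPM (662 to 763) and 900.1 CPM (857 to 945), and Krt6a at 258 and 405 CPM. Krt6b was lower, at 61.9 and 86.7 CPM. Of all Krt6a UMIs in epithelial cells, 88.0% came from these cells.

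The suprabasal pair of epidermis was present in the same cells. Krt10 stood at 356 CPM and 536 CPM and its partner Krt1 at 140.3 and 173 CPM in the KO- and WT-labelled libraries. Krt77, a type II keratin of the epidermis, stood at 343 and 536 CPM. Of the keratinocyte-like cells with a Krt1 UMI at 2000 UMIs per cell, 71.4% (10 of 14 cells; 41.9% to 91.6%) and 72.0% (of 25 cells; 50.6% to 87.9%) also had Krt10, against 16.5% and 21.5% of those without Krt1. The same held for Krt77, with Krt10 in 17 of 26 and 22 of 44 of its cells, against 12.4% and 21.6% of the rest.

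The wound pair behaved otherwise. Of keratinocyte-like cells with a Krt6a UMI, 12.9% (3.63% to 29.8%) and 31.7% (18.1% to 48.1%) also had Krt16, against 30.2% and 39.4% of cells without Krt6a. The intervals overlapped in both libraries, so Krt6a and Krt16 were not found together more often than apart at this depth.

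**Figure D2:**
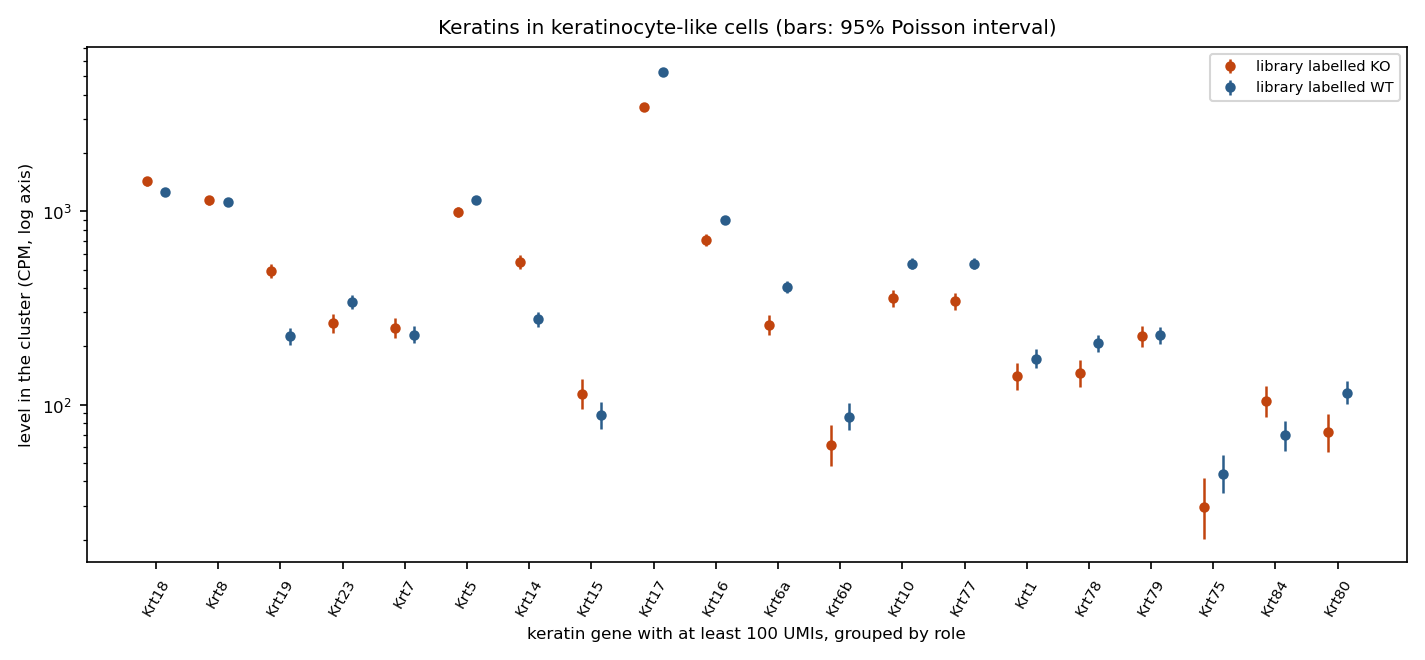
Level in keratinocyte-like cells (CPM, log axis) of the keratin genes with at least 100 UMIs there, grouped by role along the x axis, with the KO-labelled library (orange, left) and the WT-labelled library (blue, right) and bars for the 95% Poisson interval. Krt17, Krt16, Krt6a, Krt10 and Krt77 lie lower in the KO-labelled library (Krt17 at 3459 against 5259 CPM), and Krt14 and Krt19 lie higher (Krt19 at 490.2 against 226 CPM).

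Between the libraries, 2 of 4 wound and 2 of 4 suprabasal keratins with at least 20 UMIs in these cells were at least 1.5-fold lower in the KO-labelled library. Of 3 basal and of 6 simple keratins, 1 each was higher. Of 5 mucosal keratins 1 was higher and 2 were lower, and of 3 hair keratins 1 was higher and 1 lower. Of 2 sheath keratins 0 were past 1.5-fold, and of 2 grouped as other (Krt222 and Krt80) 2 were lower. Of all genes tested in these cells, 10.8% were higher and 12.9% lower. Krt17 had a log2 ratio of -0.60 (-0.66 to -0.55), Krt6a of -0.65, Krt10 of -0.59 (-0.76 to -0.42) and Krt77 of -0.65, all past 1.5-fold, and Krt80, a keratin of differentiating epithelia, of -0.68 (72.0 against 115 CPM). Krt16 was lower by less than that, at -0.34 (-0.47 to -0.22). Summed by role, the 4 wound keratins stood at 4489.6 CPM and 6651 CPM (log2 ratio -0.57) and the 5 suprabasal keratins at 855 and 1259 CPM (-0.56). The simple keratins as a group stood at 3598 and 3191 CPM (0.17).

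Krt19 stood at 490.2 CPM in keratinocyte-like cells of the KO-labelled library and at 226 CPM in those of the WT-labelled library, a log2 ratio of 1.12 (0.93 to 1.31). Its UMIs came from 69 and 65 cells. Krt14 stood at 548 and 277 CPM (0.98, 0.81 to 1.16), from 54 and 75 cells, and without the highest cell of each library its ratio was 0.84. Krt84, a type II hair keratin, stood at 104 and 69.3 CPM (0.59, 0.21 to 0.97), from only 21 and 20 cells. Krt5 (997 and 1152 CPM), Krt8 (1143 and 1112 CPM), Krt18 (1431 and 1262 CPM) and Krt79 (225 and 228 CPM), a keratin of sebaceous ducts, were all within 1.5-fold.

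Of the 29 keratins with at least 20 UMIs in keratinocyte-like cells, 4 were at least 1.5-fold higher in the KO-labelled library, where 10.8% of all genes tested were, and 9 were at least 1.5-fold lower, where 12.9% of all genes were. Below 100 UMIs these include Krt4 among the higher ones and Krt222, Krt12, Krt83 and Krt76 among the lower ones. The median log2 ratio of the 29 was -0.30, against -0.04 for all genes tested. With equal weight per cell, the count of lower members was 5, and no share of all genes is given for that weighting. Krt77 then had a ratio of 0.02, so the Krt77 difference was not seen when cells of low and high depth counted alike. The most Krt77 UMIs in 1 cell were 48 and 155. The depth of the cells differed too, with medians of 5831 and 6945.5 UMIs, and fewer cells of a subtype and less RNA per cell cannot be told apart here.

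Many mucosal, hair sheath and hair keratins had most of their UMIs in the Aire-stage mTEC-like cells, 459 and 696 cells in the KO- and WT-labelled libraries, which carried 9 of 9 markers of that stage. Of the 40 members with at least 100 UMIs, 17 had over 50% of their epithelial UMIs there, namely 7 of 9 hair, 4 of 6 sheath and 5 of 6 mucosal keratins and the suprabasal Krt9. In keratinocyte-like cells 8 had over 50%, among them the mucosal Krt78 (58.6%), and the sheath keratin Krt79 (44.5%) and the hair keratin Krt84 (35.2%) also had more UMIs there than in any other cluster, summed over both libraries. In the KO- and WT-labelled libraries, the Aire-stage-like cells gave 92.4% and 86.5% of the epithelial UMIs of Krt73, a sheath keratin, 90.6% and 75.6% of Krt71, a sheath keratin, 90.4% and 73.6% of Krt36, a hair and nail keratin, 80.0% and 85.4% of Krt13, a type I keratin of oral and oesophageal mucosa, and 75.2% and 77.3% of Krt76, a type II keratin of the palate and other oral mucosa. The same cells gave 23.2% and 29.5% of all epithelial UMIs, and over both libraries 26.8% of all UMIs and 24.6% of those of Krt8. Their share of UMIs, not of cells, is what the keratin shares stand against.

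Some of these keratins were found in few cells with many UMIs each, whereas Krt8 was found in nearly all. Over the 21 mucosal, sheath and hair keratins with at least 100 UMIs (20 in the KO-labelled library, where Krt33a had none), the median was 2.29 and 3.05 UMIs per cell with a UMI, and single members had as few as 1.41 and 2.02 for Krt25 and 2.03 and 2.24 for Krt12. Krt13 had 208 UMIs in 21 cells of the KO-labelled library, with up to 48 in a cell, and 458 UMIs in 35 cells of the WT-labelled library, with up to 73. Krt73 had 134 UMIs in 11 cells and 296 UMIs in 38 cells, and Krt71 had 309 UMIs in 43 cells and 474 UMIs in 55 cells. Krt8, in contrast, had UMIs in 434 of 459 and in 666 of 696 cells. An interval from summed UMIs is too narrow for genes of this kind, since the UMIs of 1 cell are not independent.

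**Figure D3:**
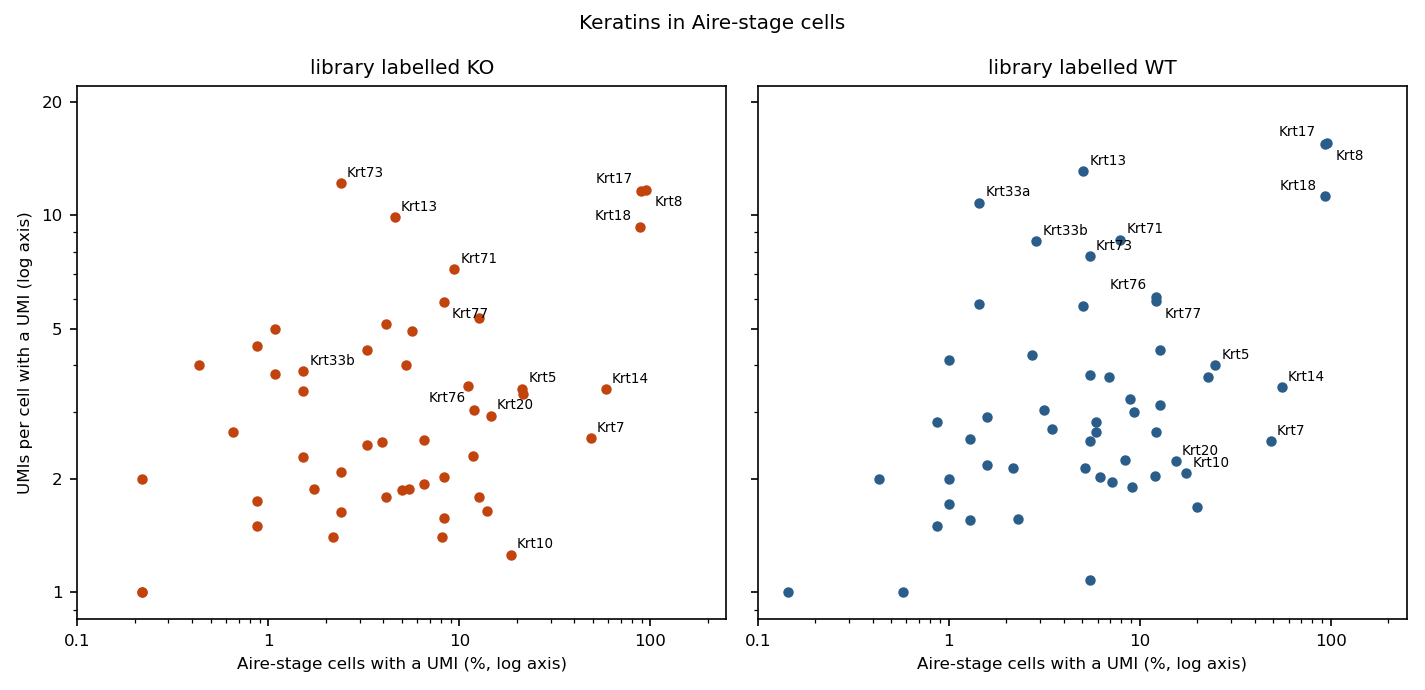
Each point is 1 keratin gene in the Aire-stage mTEC-like cells, with the share of cells that had a UMI on the x axis (log axis, %) and the UMIs per such cell on the y axis (log axis), for the KO-labelled library on the left and the WT-labelled library on the right. Krt8, Krt17 and Krt18 sit at the upper right, and Krt13, Krt73 and Krt71 at the upper left or centre, with many UMIs in few cells.

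The cells that had one of these rare keratins often had its genomic neighbour. Keratins found in at least 10 Aire-stage-like cells and in at most 25% of them (31 in the KO-labelled library, 38 in the WT-labelled library) were paired, and the number of cells with both was divided by the number that the product of the single shares gives. For pairs of adjacent genes this ratio was 3.14 (22 pairs, 21 of them above 1) and 2.96 (28 pairs, 28 above 1). It was 2.17 and 1.93 for genes 2 to 3 places apart, 1.54 and 1.59 for 4 to 8 places and 1.28 and 1.35 beyond 8 places. Pairs on different chromosomes had 1.34 and 1.30. Both libraries thus gave the same order down to 8 places, with no further step beyond it.

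Depth and shared sequence were varied. Without pairs that share stretches of 90 bases, the ratio for adjacent genes was 2.99 and 2.86 in the KO- and WT-labelled libraries. With each cell thinned to 2000 UMIs it was 2.10 and 2.24, against 1.19 and 1.18 for pairs on different chromosomes. Without the cells of the highest doublet scores it was 3.19 and 2.97.

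**Figure D4:**
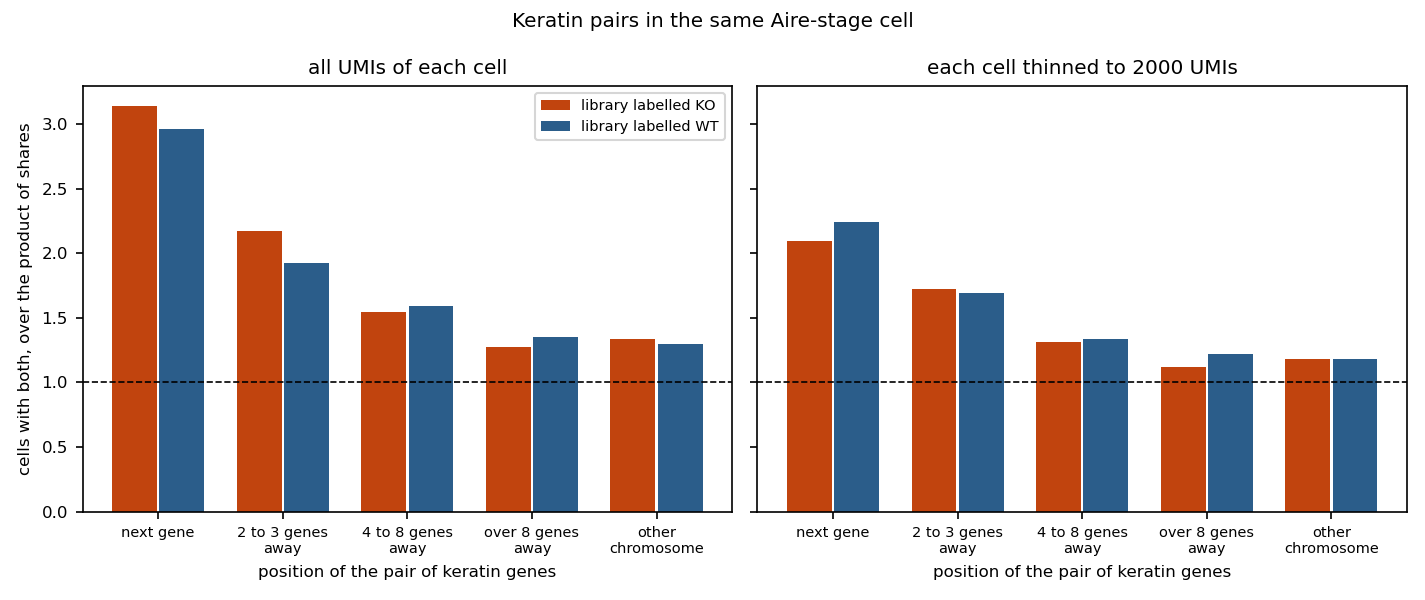
Bars give, for pairs of keratin genes in Aire-stage mTEC-like cells, the number of cells with a UMI of both genes divided by the number given by the product of their shares, by position of the pair on the x axis; orange is the KO-labelled library, blue the WT-labelled library, and the dashed line marks 1. The left panel uses all UMIs and falls from 3.14 and 2.96 for adjacent genes to 1.34 and 1.30 for genes on different chromosomes, and the right panel, at 2000 UMIs per cell, starts at 2.10 and 2.24.

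Single pairs show the pattern in cells. Krt77 and Krt76, 14.646 kb apart on chromosome 15, were found together in 19 and 44 Aire-stage-like cells of the KO- and WT-labelled libraries, out of 38 and 85 cells with Krt77 and 55 and 84 with Krt76, a ratio of 4.17 and 4.29. Krt12, the keratin of the cornea, and Krt20, 6.144 kb apart on chromosome 11, were together in 19 and 30 cells (3.43 and 3.36). Krt73 and Krt2, a keratin of the upper epidermis, 8.343 kb apart, were together in 5 and 12 cells, with ratios of 19.0 and 14.7. Krt36 and Krt13 were together in 9 and 13 cells (13.1 and 13.6). The last 2 ratios rest on few cells each.

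An extreme case lay outside the epithelial clusters. In the endothelial-like cluster of the WT-labelled library, 1 and the same cell held all 46 UMIs of Krt33a, all 42 UMIs of Krt34 and 91 of the 98 UMIs of Krt33b, type I hair keratins of chromosome 11, and also 85 of the 86 UMIs of Krt13. That cell had 29647 UMIs in all, among them 29 of Epcam and 18 of Aire. The cell was not among the epithelial cells of any count given here. Over the endothelial-like cluster, 43.5% and 47.4% of cells had an Epcam UMI in the KO- and WT-labelled libraries.

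Because members of adjacent pairs were found in the same cells, the promoters of Krt72, Krt73, Krt2, Krt77 and Krt76 are shown, all on the - strand of chromosome 15. The 100 bases before each gene's start are given from RefSeq on GRCm38.p6, for Krt72 at chr15:101786521-101786620, Krt73 at chr15:101802361-101802460, Krt2 at chr15:101818170-101818269, Krt77 at chr15:101869706-101869805 and Krt76 at chr15:101892921-101893020. Capitals mark TATAAA, the letters of a TATA box, on the gene's strand.
Krt72: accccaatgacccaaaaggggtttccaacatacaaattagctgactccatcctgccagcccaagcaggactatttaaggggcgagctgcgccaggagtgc
Krt73: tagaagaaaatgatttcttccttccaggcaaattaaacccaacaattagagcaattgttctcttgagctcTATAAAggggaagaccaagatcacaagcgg
Krt2: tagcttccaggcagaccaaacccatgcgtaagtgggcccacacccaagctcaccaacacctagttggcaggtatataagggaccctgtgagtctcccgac
Krt77: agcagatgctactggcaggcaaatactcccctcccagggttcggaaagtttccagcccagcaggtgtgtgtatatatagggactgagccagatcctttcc
Krt76: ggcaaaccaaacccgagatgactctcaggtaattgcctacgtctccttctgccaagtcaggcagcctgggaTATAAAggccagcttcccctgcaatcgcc
Krt73 carries the motif 30 bases before its start and Krt76 29 bases before. No TATAAA stands in these 100 bases of Krt72, Krt2 or Krt77. Only these exact letters were searched, and Krt72, Krt2 and Krt77 hold other runs of t and a at a like place. They are thus not shown to lack a TATA box. Of the 37 keratin promoters in the RefSeq table (36 members, from 250 bases before to 50 after the start), 19 (51.4%) held TATAAA on either strand, against 13.6% of all 32851 promoters. On the gene's strand and starting 35 to 20 bases before the start, 12 (32.4%) held it, among them Krt10, Krt12, Krt20, Krt73 and Krt76, against 1.84% of all promoters. GGGCGG, the core of a GC box, was in 2 of 37 (5.41%, Krt7 and Krt75) against 35.7%, and TGTTTAC, a forkhead core, in 0 of 37 against 3.65%, each on either strand. None of these motifs contains another. A match is a description of sequence and not a site.

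Between the libraries, the Aire-stage-like cells differed for a part of these rare keratins. Krt76 stood at 32.1 CPM (27.4 to 37.4) in the KO-labelled library and at 56.2 CPM (51.4 to 61.3) in the WT-labelled library, a log2 ratio of -0.81 (-1.07 to -0.55), from 55 and 84 cells. Krt84 stood at 6.54 and 19.7 CPM (-1.59), from 19 and 48 cells, and Krt83, a type II hair keratin, at 14.6 and 22.3 CPM (-0.61). Krt75, a keratin of the follicle's companion layer, stood at 8.27 and 12.8 CPM (-0.63). Other keratins of the same kind were within 1.5-fold, such as Krt71 with 59.4 and 52.2 CPM, Krt13 with 40.0 and 50.5 CPM and Krt73 with 25.8 and 32.6 CPM.

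Among members with at least 100 UMIs in these cells, the neighbouring type I hair keratins Krt33a and Krt33b were the furthest below the WT-labelled library. Krt33a had 0 UMIs there in Aire-stage-like cells against 108 UMIs in 10 cells of the WT-labelled library, at least 20.64-fold lower with a limit of 3 counts. Krt33b had 27 UMIs in 7 cells and 171 UMIs in 20 cells, of which 76 were in 1 cell (5.19 against 18.8 CPM, -1.86). These differences rest on a few cells in 1 library.

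Of the 47 keratins with at least 20 UMIs in Aire-stage-like cells, 3 (Krt27, Krt32 and Krt90, each below 100 UMIs) were at least 1.5-fold higher in the KO-labelled library, where 11.3% of all genes were, and 11 (23.4%) were at least 1.5-fold lower, where 11.4% of all genes were. By role, 6 of 12 hair keratins, 2 of 7 sheath keratins, 1 of 6 mucosal keratins and 0 of 6 simple keratins were lower. Neighbouring members were often found in the same cells, so these are not separate counts. The median log2 ratio of the 47 was -0.21, against -0.02 for all genes tested. Aire stood at 969 and 890.1 CPM and Fezf2, another regulator of peripheral antigens, at 424 and 533 CPM in the same cells. Their part in the keratin values was not tested.

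In the other clusters no more than 32 keratins reached 20 UMIs. In the unnamed cluster 3, of 32 members 7 (21.9%) were higher in the KO-labelled library, where 9.03% of all genes were, and 6 (18.8%) were lower, where 10.1% were. Krt79 was among the higher ones (69.7 and 42.6 CPM, 0.71) and Krt16 (60.97 and 95.9 CPM, -0.65) and Krt77 (18.4 and 34.1 CPM, -0.89) among the lower ones. In tuft-like cluster 6, 1 of 22 (4.55%) was higher, where 8.72% of all genes were, and 9 (40.9%) were lower, where 10.6% were. Of the 22 members there, 11 were above 0 and 11 below. The 9 lower ones were Krt13, Krt16, Krt83, Krt84, Krt71, Krt73, Krt77, Krt79 and Krt78. Of these 9, Krt71 had 0 UMIs in the KO-labelled library and 103 UMIs in 6 cells of the WT-labelled library, 73 of them in 1 cell. In cycling-like cells 2 of 24 were higher (9.07% of all genes) and 6 lower (9.43%).

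In tuft-like cluster 8, 0 of 9 members were higher (8.94% of all genes) and 3 lower (11.7%), Krt17, Krt19 and Krt5. Krt17 and Krt5 were there below their levels in thymocyte-like cells (736 and 773 CPM for Krt17, 181 and 113 CPM for Krt5), so their ratios are not read as differences in expression, and under the stricter filter on cells Krt17 and Krt19 had ratios of 0.13 and 0.14. Gut- and liver-like cells had 2 of 13 higher (11.4% of all genes) and 2 lower (16.6%), and ciliated-like cells, only 42 and 28 in number, had 3 of 11 higher (16.7%) and 4 lower (18.3%). Microfold-like cells had 2 of 12 higher (10.7%) and 3 lower (14.8%), and the unnamed cluster 11 had 3 of 13 higher (15.7%) and 2 lower (20.7%). In neuroendocrine-like cells 0 of 16 were higher (8.36%) and 2 lower (10.9%).

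Basal-like cells had 1 of 9 higher (11.2% of all genes) and 1 lower (8.3%), cluster 4 had 1 of 12 higher (8.05%) and 1 lower (7.89%), cluster 14 had 1 of 7 higher (11.2%) and 0 lower (12.7%), and the unnamed cluster 1 had 0 of 7 higher (10.2%) and 1 lower (10.1%). With so few members, 1 gene more or less decides the share in each of these clusters.

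Over all epithelial cells, where the mixture of cell types also counts, the abundant keratins were close between libraries. Krt17 stood at 1488 CPM (1472 to 1504) in the KO-labelled library and 1599.9 CPM (1586 to 1614) in the WT-labelled library, Krt8 at 1131 and 1210.5 CPM and Krt18 at 1104 and 1100.3 CPM, with log2 ratios of -0.10, -0.10 and 0.01. Krt5 stood at 389 and 364 CPM (0.10), Krt14 at 347 and 282 CPM (0.30, 0.26 to 0.34), Krt7 at 216 and 164 CPM (0.40, 0.34 to 0.46) and Krt19 at 99.3 and 91.4 CPM (0.12). None of the 6 simple and 3 basal keratins passed 1.5-fold.

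Over the family, more keratins were lower than higher in the KO-labelled library. Of the 51 members with at least 20 UMIs, 19 (37.3%) were at least 1.5-fold lower, where 9.64% of all 21841 genes tested were, and 2 (Krt4 and Krt27) were at least 1.5-fold higher, where 7.57% were. Their median log2 ratio was -0.42, against -0.01 for all genes, and 41 of 51 were below 0. With the mixture of clusters held at that of the WT-labelled library, 12 in place of 19 were lower. No share of all genes is given for that weighting, so the 12 do not stand against the 9.64%. The lower ones were 9 of 14 hair, 4 of 9 sheath, 3 of 6 mucosal, 2 of 4 wound and 1 of 5 suprabasal keratins. In Aire-stage-like cells neighbouring members were often found together, so a few cells can move several members at once. The neighbours Krt33a, Krt33b and Krt34 had UMIs in 1, 34 and 1 cells of the KO-labelled library. In the WT-labelled library they had them in 20, 51 and 9 cells.

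Of those with at least 100 UMIs, Krt77 stood at 31.7 CPM in the KO-labelled library and 56.3 CPM in the WT-labelled library (-0.83, -0.96 to -0.70) and Krt76 at 9.90 and 21.5 CPM (-1.12, -1.34 to -0.89). Krt6a stood at 15.3 and 25.8 CPM (-0.76), Krt13 stood at 11.6 and 17.4 CPM (-0.59), and Krt6b had 112 and 237 UMIs (-0.62). Among sheath keratins, Krt72 stood at 0.937 and 2.93 CPM (-1.64), Krt73 at 6.47 and 11.1 CPM (-0.78) and Krt75 at 5.49 and 8.81 CPM (-0.68). Krt24, a type I keratin grouped here with the mucosal ones, stood at 2.94 and 5.53 CPM (-0.91).

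Among hair keratins, Krt84 stood at 9.68 and 14.8 CPM (-0.61), Krt83 at 4.91 and 9.62 CPM (-0.97), Krt33b at 2.86 and 7.74 CPM (-1.44) and Krt87 at 1.74 and 3.06 CPM (-0.81). Krt33a had 1 UMI in the KO-labelled library and 138 UMIs in 20 cells of the WT-labelled library (-6.65, -11.97 to -4.15). Below 100 UMIs, Krt28, Krt39, Krt34, Krt35 and Krt82 were lower too. Krt4, the partner of Krt13 in mucosa, went the other way at 10.8 and 6.93 CPM (0.64, 0.37 to 0.91). Its UMIs came from 57 and 72 cells, and those of Krt13 from 32 and 50 cells. The opposite signs of this mucosal pair thus rest on sums over few cells. Krt16 (63.7 and 94.8 CPM, -0.57) and Krt10 (40.0 and 52.7 CPM, -0.40) were lower by less than 1.5-fold.

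The cell mixture moved with these values. In the KO- and WT-labelled libraries, keratinocyte-like cells made up 4.74% and 5.92% of epithelial cells, the unnamed cluster 3 made up 9.58% and 12.4% and the unnamed cluster 1 made up 16.5% and 9.58%, and cluster 4 held 391 and 266 cells. Aire-stage-like cells numbered 459 of 3268 and 696 of 3883, and tuft-like cluster 6 made up 4.22% and 6.85%. When the clusters were weighted as in the WT-labelled library, of the 15 members with at least 100 UMIs that were past 1.5-fold, 8 still were: Krt33a, Krt33b, Krt87, Krt83, Krt72, Krt77, Krt76 and, higher, Krt4. With that weighting Krt5 had a log2 ratio of -0.21 in place of 0.10.

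**Figure D5:**
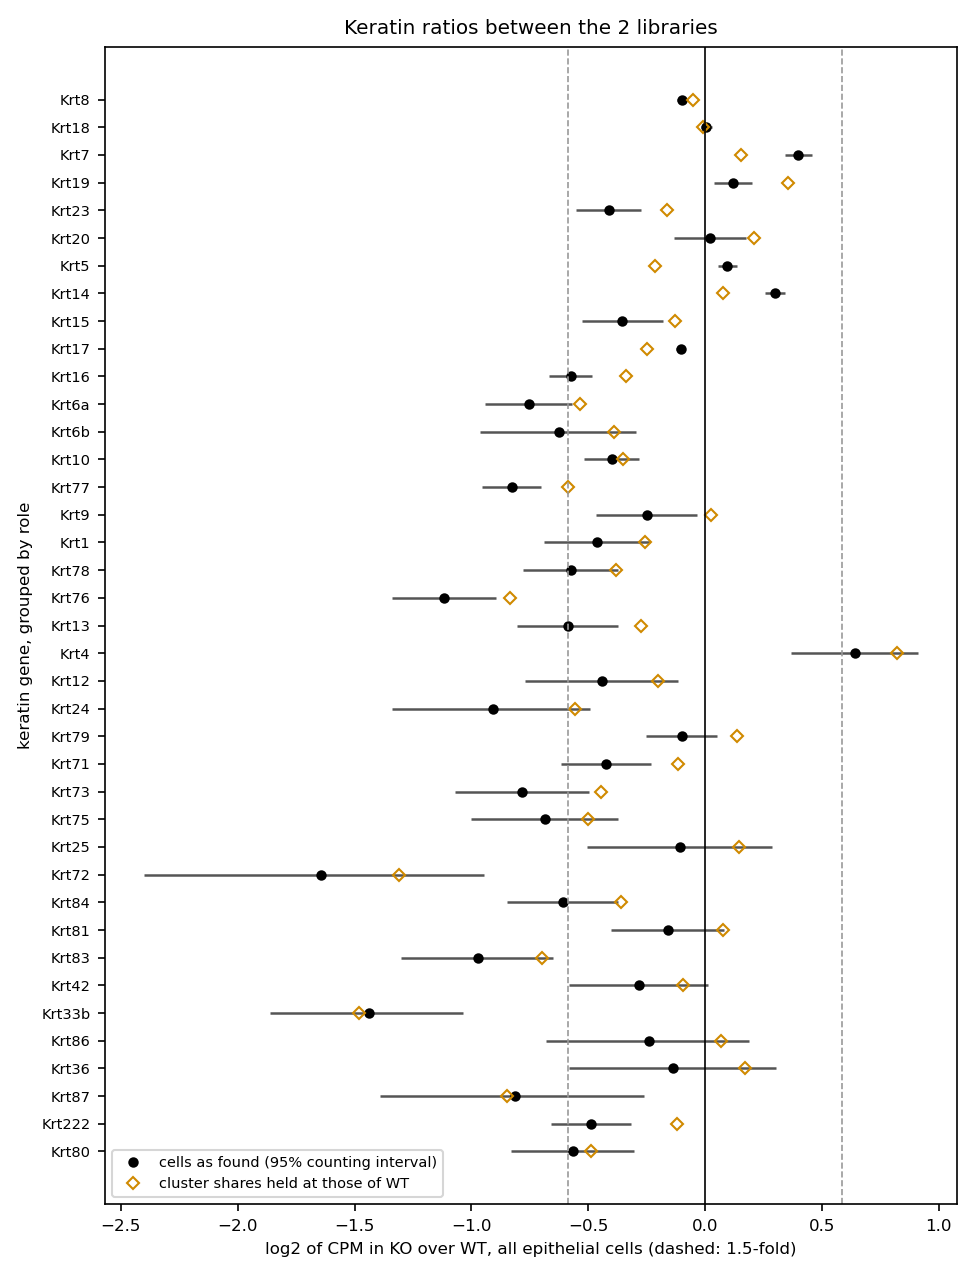
Log2 ratio of CPM in the KO-labelled library over the WT-labelled library over all epithelial cells, for the keratins with at least 100 UMIs except Krt33a (-6.65), grouped by role down the page. Filled points use the cells as found, with the 95% counting interval as a bar, open diamonds weight the clusters as in the WT-labelled library, and dashed lines mark 1.5-fold. Most points below the simple and basal keratins lie left of 0, Krt4 lies right, and many diamonds lie nearer to 0 than their points.

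The genes that keratins work with were set beside them. Of 15 desmosome and hemidesmosome anchors none was past 1.5-fold over all epithelial cells, where 7.57% of all genes were higher and 9.64% lower, and the median log2 ratio was -0.15. The highest were Cd151 (32.4 and 28.5 CPM, 0.18) and Itgb4 (68.4 and 61.8 CPM, 0.15), both of hemidesmosomes, and the lowest the desmosomal plakophilin Pkp1 (61.6 and 89.3 CPM, -0.54) and Lad1 (78.2 and 107 CPM, -0.46). In the Aire-stage-like cells Pkp1 was past 1.5-fold, at 43.6 and 87.9 CPM (-1.01). Of 18 regulators of keratin genes none was past 1.5-fold over the epithelium, against the same shares of all genes (median -0.12), with Tfap2c and Ovol2 highest (0.44 each) and Gata3 (-0.44) and Grhl3 (-0.43) lowest. In keratinocyte-like cells 2 of 16 regulators were higher, Tfap2c (39.7 and 15.2 CPM, 1.38) and Grhl2 (92.3 and 61.4 CPM, 0.59), where 10.8% of all genes were, and 3 were lower, Grhl3 (31.4 and 61.96 CPM, -0.98), Gata3 (47.1 and 73.2 CPM, -0.64) and, from 5 and 15 UMIs, Hnf4a, where 12.9% of all genes were. In Aire-stage-like cells 1 of 18 was higher, Ovol2 (0.60), where 11.3% of all genes were. There 2 were lower, Ovol1 (-0.60) and, from 3 and 22 UMIs, Hnf4a, where 11.4% of all genes were.

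Of 16 other intermediate filament genes, 4 were at least 1.5-fold higher over all epithelial cells of the KO-labelled library, where 7.57% of all genes were, and 0 lower, where 9.64% were. The median log2 ratio of the list was -0.078, with 9 of 16 below 0. The nuclear lamin Lmnb1 stood at 23.1 and 11.2 CPM (1.04, 0.84 to 1.25), the neuronal filament genes Prph at 34.0 and 18.5 CPM (0.88) and Nefm at 9.86 and 5.49 CPM (0.84), and Synm at 14.9 and 8.32 CPM (0.84). The lowest were Nes (-0.56) and Bfsp2 (-0.54). In Aire-stage-like cells 4 of the 16 were higher, where 11.3% of all genes were. There 2, Lmnb2 and Bfsp2, were lower, where 11.4% of all genes were. Lmnb1 stood there at 47.1 and 6.39 CPM (2.88, 2.46 to 3.32).

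The other 13 keratins had 4 to 88 UMIs in all. Of the 11 with at least 20 UMIs, Krt90, Krt2, Krt32, Krt35, Krt34, Krt27, Krt88, Krt39 and Krt26 had over 50% of them in Aire-stage-like cells. The cluster with the most UMIs of Krt28 was also that one, and that of Krt82 was the unnamed cluster 3. Krt31 and Krt40 had fewer.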

How the data were processed

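Per the file headers, the authors deposited unnormalized UMI counts from Cell Ranger 7.0.1. Cell Ranger, Seurat and mm10 stand in the submitters' processing notes. For chemistry and intron counting, nothing was given in the sources used here. Deposited were 4277 and 4957 barcodes in the KO- and WT-labelled libraries, with 25233944 and 33120715 UMIs and a lowest total of 500.

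The keratins and the gene lists were chosen with earlier results of these data known. Kept were cells that had 500 genes and 1000 UMIs or more, and no more than 10% of UMIs from mitochondria (83.8% and 81.4% of barcodes). Joint clustering in scanpy 1.11.5 used 3000 variable genes, 30 principal components, 15 neighbours and Leiden resolution 1. Left out of it were the keratins, Foxp1, ribosomal, mitochondrial, haemoglobin and Y-linked genes and Xist. A cluster was named where at least 3 markers, and 50% of their list, were 2-fold enriched and found in 10% of cells. It stayed unnamed if its median depth was under 50% of its library's and no marker led it. The list share and the depth limit were set after clusters had been seen. Scrublet called 0 and 3 cells, under its expected rate, so doublets were kept.

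UMIs were summed per cluster and library and given as CPM. Intervals (95%) are exact: Poisson for levels, conditional binomial for ratios, Clopper-Pearson for shares. Members with 20 UMIs or more entered the counts past 1.5-fold, and those with 100 or more are given with values. The shares of all genes beside these counts were not matched for level or for the number of cells with a UMI. The 100-UMI limit within clusters, the role groups, the analysis of genomic neighbours, the 50% limit on where UMIs lay and the motifs were chosen after values had been seen. For each partner list the 2 highest and the 2 lowest ratios are named, plus those past 1.5-fold, and for likeness the 5 other genes with the highest Pearson r. Thinning to 2000 UMIs left out 489 and 428 shallower epithelial cells. Positions are from GENCODE M21, promoters from RefSeq (GRCm38.p6). Alternatives were other clusterings, filters and limits, equal weight per cell, a fixed mixture of clusters and TMM factors (edgeR 4.0.16). Steps were tested on simulated counts.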

Additional observations from a re-analysis of the deposited data

Results flagged for a closer look

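Several keratins had ratios past 1.5-fold in opposite directions in different cell types. In each case the 2 libraries were compared within clusters, and the difference between clusters was not tested. All values are log2 ratios of the KO-labelled over the WT-labelled library, for members with at least 100 UMIs in the cluster.

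Krt14, the basal type I keratin, was higher in keratinocyte-like cells (0.98) and in the unnamed cluster 11 (0.69), and lower in ciliated-like cells (-2.1; 33 UMIs and 89 UMIs, with up to 9 and 42 in a cell). Krt17 was lower in keratinocyte-like cells (-0.6), in tuft-like cluster 8 (-0.82) and in gut- and liver-like cells (-0.88), and higher in ciliated-like cells (1.17; 268 and 75 UMIs). Krt19 was higher in keratinocyte-like cells (1.12), and lower in tuft-like cluster 8 (-0.59) and in microfold-like cells (-1.49; 22 and 85 UMIs). Krt5 was higher in gut- and liver-like cells (1.06; 123 UMIs in 13 cells and 100 UMIs in 26 cells) and lower in ciliated-like cells (-1.04; 54 and 70 UMIs). Krt84, a hair keratin, was lower in Aire-stage mTEC-like cells (-1.59) and higher in keratinocyte-like cells (0.59).

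Ciliated-like cells numbered 42 and 28, and Krt14 there had a ratio of -1.71 without the highest cell of each library. Thymocyte-like cells, which should lack keratins, had Krt17 at 736 and 773 CPM, Krt14 at 200.2 and 113 CPM and Krt5 at 181 and 113 CPM. In ciliated-like cells Krt17 stood at 608 and 270.2 CPM, Krt14 at 74.9 and 320.6 CPM and Krt5 at 122.5 and 252.2 CPM, so only the levels of Krt14 and Krt5 in the WT-labelled library were above those. Krt17 in tuft-like cluster 8 (96.8 and 171 CPM) was below its level in thymocyte-like cells in both libraries, and in gut- and liver-like cells (471 and 868 CPM) in the KO-labelled library only. In tuft-like cluster 8 the ratios of Krt17 and Krt19 were 0.13 and 0.14 under the stricter filter on cells. The part of free RNA in these values was not tested.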

How the results depend on the processing

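No paired analysis was possible because each group is 1 library, which also leaves no replicate to leave out. Of the main counts and sums, 61 values under the alternatives stayed near their value as reported and 23 moved, and of the single members 560 stayed, 107 moved and 8 turned round. The cause was not tested in any case. No share of all genes is given for the counts under an alternative, so those counts stand only against the counts as reported.

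Over all epithelial cells, 12 members in place of 19 were lower with the cluster mixture of the WT-labelled library, and past 2-fold 0 were higher and 9 lower. The summed keratins (-0.06) had -0.071 with equal weight per cell, -0.048 with TMM factors and -0.11 with the fixed mixture. In Aire-stage-like cells the count of higher members (3) was 11 at resolution 2, 5 with the stricter filter on cells, 5 without the highest doublet scores and 1 past 2-fold, and 7 members in place of 11 were lower past 2-fold. Their summed keratins (-0.18) had -0.055 at resolution 2. In keratinocyte-like cells the count of higher members (4) was 2 with keratins left in the clustering, 2 past 2-fold and 10 without a minimum count, and the count of lower members (9) was 5 with the stricter filter, 5 with equal weight per cell, 2 past 2-fold and 18 without a minimum. Their summed keratins (-0.25) had -0.33 with keratins in the clustering, -0.18 with equal weight per cell, -0.16 with the stricter filter and -0.29 without the highest doublet scores.

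Signs turned round over all epithelial cells for Krt19 (-0.17) and Krt9 (0.055) with equal weight per cell and for Krt9 (0.025) and Krt5 (-0.21) with the fixed mixture. Within clusters they did for Krt77 in keratinocyte-like cells with equal weight per cell (0.021), for Krt19 (0.14) and Krt17 (0.13) in tuft-like cluster 8 under the stricter filter and for Krt15 in gut- and liver-like cells without the highest cell of each library (-0.83). Some clusters had no counterpart under an alternative and gave no value there: 6 at resolution 0.5, 2 at resolution 2 (among them the keratinocyte-like cells), 3 with keratins in the clustering, 6 under the stricter filter and 3 without the highest doublet scores. With 33% of a marker list in place of 50%, 14 epithelial clusters in place of 13 had a name, and 16 with no rule on depth as well.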
